A study of Mus musculus with 7 samples.

Results

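Peaks of the retinoid receptors were described at 8 genes of peroxisomal fatty acid oxidation, Abcd2, Abcd3, Ehhadh, Hsd17b4, Acaa1a, Acaa1b, Scp2 and Acot8. The genes were chosen by name, out of 21536 protein-coding genes with a known strand. A peak was counted for a gene when its midpoint lay in the gene or within 50 kb of it on GRCm38 (mm10), and 384 of the 245004 called peaks did so. The peaks came from chromatin immunoprecipitation followed by sequencing (ChIP-seq) of mouse liver in which the retinoic acid receptors RARα and RARβ and their partner, the retinoid X receptor RXRα, were precipitated. The livers were from male wild type C57BL/6 mice aged 3 months, given either a normal diet (control) or a diet containing retinoic acid (RA). The labels give 1 day of RA feeding, whereas the methods of the study give a longer treatment, so the duration is not settled. Each of the 6 peak lists stands for 1 library, which leaves no replicate check, and every difference below describes these libraries without a test.

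Peroxisomal β-oxidation shortens very long chain and branched chain fatty acids, dicarboxylic acids and the side chain of bile acid precursors. Transporters of the ABC family bring the acyl-CoAs into the peroxisome, where oxidation, hydration, dehydrogenation and thiolytic cleavage follow, and thioesterases release the products. In rodent liver several of these genes are classical targets of PPARα, which binds DNA as a heterodimer with RXRα, the same partner that the RARs use.

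The start of a gene was taken as the outermost start of its span in RefSeq. Promoter sequences of RefSeq (GRCm38.p6), from 250 bases before a start to 50 bases after it, were found for 6 of the 8 genes. Those of the thiolases Acaa1a and Acaa1b are shown because this pair of neighbouring paralogs had unlike RARβ peaks, that of Scp2 because it held the only receptor half-site, and that of Acot8 because the RAR peaks over it were among the highest-ranked at any of the 8 genes. They read 5′ to 3′ along the gene. Capitals mark the half-site AGGTCA where it occurs. The window of Acaa1a is on the plus strand at chr9:119341044-119341343, and the others are on the minus strand, Acaa1b at chr9:119157044-119157343, Scp2 at chr4:108118498-108118797 and Acot8 at chr2:164804832-164805131.
Acaa1a: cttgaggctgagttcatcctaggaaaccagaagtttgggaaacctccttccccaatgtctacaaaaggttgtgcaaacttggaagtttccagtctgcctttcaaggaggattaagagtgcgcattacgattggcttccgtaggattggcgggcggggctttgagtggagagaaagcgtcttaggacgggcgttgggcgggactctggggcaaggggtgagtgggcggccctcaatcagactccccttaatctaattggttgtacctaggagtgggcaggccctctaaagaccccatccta
Acaa1b: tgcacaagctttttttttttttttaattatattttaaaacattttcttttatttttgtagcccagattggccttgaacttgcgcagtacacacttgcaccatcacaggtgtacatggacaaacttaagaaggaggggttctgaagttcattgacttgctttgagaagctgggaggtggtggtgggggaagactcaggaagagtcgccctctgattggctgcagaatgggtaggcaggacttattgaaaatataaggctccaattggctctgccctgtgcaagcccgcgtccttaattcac
Scp2: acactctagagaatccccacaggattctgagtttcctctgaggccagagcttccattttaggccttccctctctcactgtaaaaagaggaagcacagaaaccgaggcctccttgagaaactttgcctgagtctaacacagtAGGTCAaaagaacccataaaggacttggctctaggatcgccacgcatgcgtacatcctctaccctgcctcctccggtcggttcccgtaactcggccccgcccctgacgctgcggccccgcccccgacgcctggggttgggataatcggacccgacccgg
Acot8: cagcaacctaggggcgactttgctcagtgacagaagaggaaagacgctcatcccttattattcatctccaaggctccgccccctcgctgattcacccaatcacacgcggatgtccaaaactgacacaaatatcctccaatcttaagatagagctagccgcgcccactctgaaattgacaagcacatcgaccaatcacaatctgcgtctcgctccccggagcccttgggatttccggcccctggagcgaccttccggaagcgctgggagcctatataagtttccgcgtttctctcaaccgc

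Both strands of the 7 promoter windows of these 6 genes (Abcd3 has 2 listed starts) were searched for AGGTCA and for direct repeats of AGGNCA with 1 base (DR1), 2 bases (DR2) or 5 bases (DR5) between the copies. A repeat can contain the half-site, so the searches overlap. The half-site occurred once, at Scp2, 109 bases before the listed start and on the strand of the gene. Among 32851 promoter windows of the same length in the table, 16.26% held this half-site, 0.3805% held a DR1, 0.2466% a DR2 and 0.2161% a DR5. None of the 7 windows held a repeat of the 3 kinds, which says only that these letters are not in these windows. All 6 lists had a peak over the windows of Acaa1a, Abcd3 and Acot8. The windows of Acaa1b and Ehhadh were under a peak in 5 lists, all but RARβ control, and that of Scp2 in 4, with no RARβ peak.

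**Figure D1:**
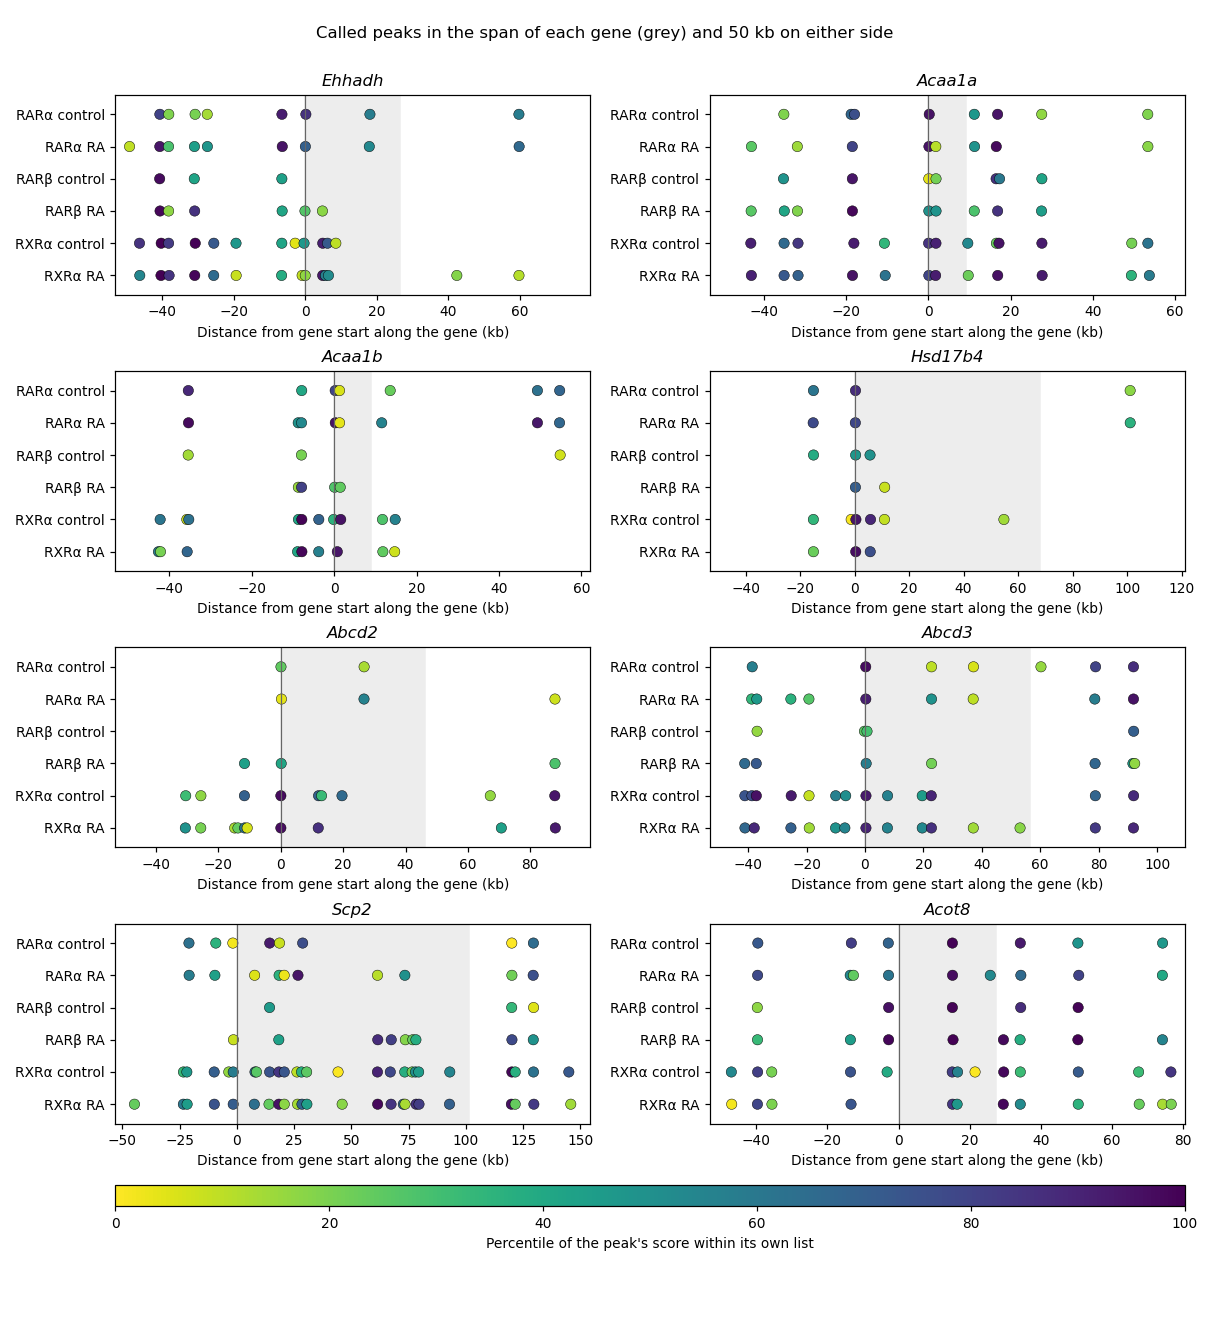
Called peaks of the 8 genes by distance of the midpoint from the gene start in kb (x axis) in each list (rows), with the gene in grey. Colours give the percentile of the score within its own list, from 0 to 100. Most rows of RXRα hold more points than those of the RARs, up to 25 for Scp2 under the control diet.

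The map of called peaks shows where each receptor was called along the genes. The caller's score is not comparable between lists, so each peak is given by its percentile within its own list, where 100 is the top. A region with several peaks of 1 list is given by the highest of them. The lists held from 14968 (RARβ control) to 61128 (RXRα control) peaks, so the same rank is a lower percentile in a shorter list. The windows of the 8 genes held 50 RARα peaks in the control list and 59 in the RA list, 28 and 48 RARβ peaks, and 101 and 98 RXRα peaks. Per 100 kb of window, the median number of peaks over the 8 genes was 4.98 for RARα with the control diet and 6.41 with RA, where all protein-coding genes had medians of 2.66 and 3.07. For RARβ it was 2.46 and 4.48 beside 0.96 and 1.92 for all genes, and for RXRα 9.33 and 9.18 beside 3.77 and 3.69. The median window of the 8 genes was thus denser in peaks than that of all genes in every list. Of the 384 peaks, 66 (17.2%) were above the 90th percentile of their list, as were 10% of all peaks. Of these 66 peaks, 29 had a start of their own gene as the nearest listed start. The other 37 lay nearer to the start of a neighbouring gene, so being in a window does not assign a peak to one of the 8 genes.

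Within 10 kb of the start, RARα peaks were called at 8 of 8 genes under each diet, against 61.9% of all protein-coding genes under the control diet and 63.3% under RA. RARβ peaks were called at 6 genes under the control diet (44.1% of all genes) and at 8 under RA (54.7%). RXRα peaks were called at 8 genes under the control diet (61.3%) and at 7 under RA (61.7%). In lists cut to the same length, RARα was called at 6 genes with the control diet and 5 with RA, and RARβ at 6 and 4, so that the order of the diets turned for RARβ. With a score of at least 100, RARβ was called at 1 and 4 genes. Shares of all genes were not counted with these shorter lists, so the lower counts stand without a comparison. With a limit of 1 kb, RARα was called at 6 genes under each diet (45.9% and 46.2% of all genes), RARβ at 3 and 6 (33.1% and 40.3%), and RXRα at 6 and 6 (40.1% and 41.9%). Scp2 and Acot8 had no peak within 1 kb of the outermost start in any list. For both, the starts in the RefSeq promoter table lie inside the span. Measured from any listed start, within 1 kb, RARα was called at 7 and 8 genes, RARβ at 4 and 7 and RXRα at 8 and 8. This measure was added after these values were seen. No share of all genes was counted by it, so these counts also stand without a comparison.

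At 10 kb from the outermost start, every list reached 5 of the genes, Ehhadh, Acaa1a, Acaa1b, Hsd17b4 and Abcd3, a pattern shared with 8232 of all genes (38.22%, these 5 included). Abcd2 and Scp2 lacked only RARβ under the control diet, a pattern of 2006 genes (9.315%). Acot8 lacked only RXRα under RA, a pattern of 122 genes (0.5665%). This lack depended on the outermost start. The listed start of Acot8 inside the span lay under an RXRα peak in the RA list, at the 84.3rd percentile and nearest to the start of Zswim3. The grid of best percentiles shows RXRα peaks within 10 kb at high percentiles at all genes but Scp2 and Acot8. RARβ control had no peak within 10 kb at Abcd2 and Scp2. Its best peaks stood at the 20.5th to the 49.7th percentile at the other genes but Acot8, where the best peak stood at the start of a neighbouring gene. These receptors are not on the same footing, because their lists differ in length. At 5.8 kb inside Hsd17b4, RARβ control at the 49.7th was rank 7529 of 14968. RXRα control at the 89.4th was rank 6482 of 61128 there.

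**Figure D2:**
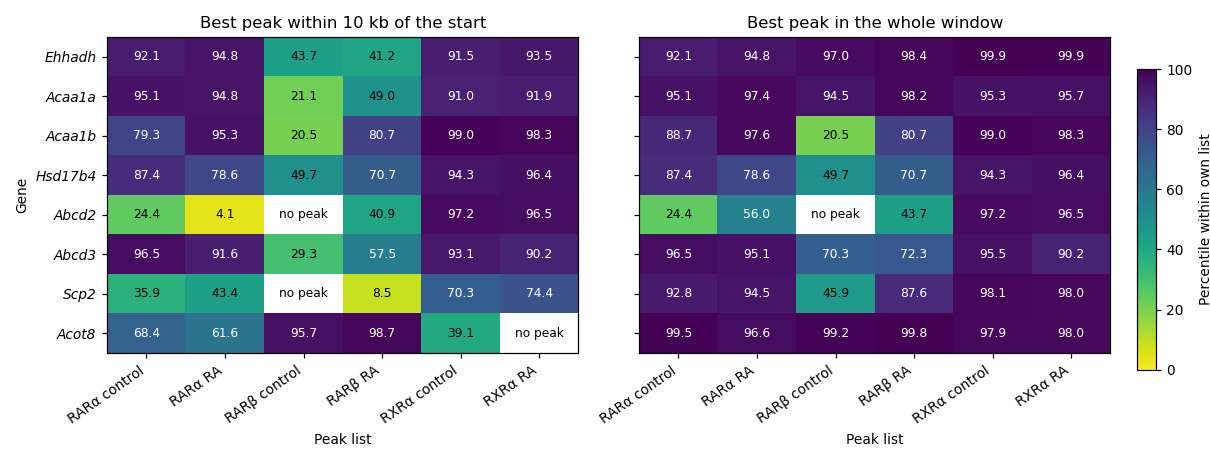
Percentile, within its own list, of the best peak within 10 kb of the outermost start (left) and in the whole window (right), for 8 genes (rows) and 6 lists (columns). RXRα reached at least the 90th percentile in both diets at Ehhadh, Acaa1a, Acaa1b, Hsd17b4, Abcd2 and Abcd3 within 10 kb. No RARβ control peak did so except at Acot8 (95.7). The RARβ control list held 14968 peaks and the RXRα control list 61128, so percentiles of different receptors are not on the same footing.

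The peroxisomal half-transporters were described first. Abcd2 (chromosome 15, 91145871 to 91192007, minus strand) imports very long chain and polyunsaturated acyl-CoAs and is better known from brain and adipose tissue than from liver. It had 2 RARα peaks in the control list and 3 in the RA list, 0 and 3 RARβ peaks, and 9 and 10 RXRα peaks. Its start lay under an RXRα peak at the 97.2nd percentile under the control diet and the 96.5th under RA, centred 30 bp inside the gene in both diets (control peak chr15:91191588-91192367). At the same region RARα was at the 24.4th and the 4.1st percentile, and RARβ was not called under the control diet and was at the 40.9th under RA. The start of Abcd2 therefore carried a high-ranked RXRα peak beside low-ranked RAR peaks. None of its 14 regions was called in all 6 lists, and 7 were called in 1 list.

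Abcd3 (chromosome 3, 121758904 to 121815302, minus strand) encodes PMP70, the abundant membrane transporter of liver peroxisomes. It had 7 RARα peaks in the control list and 9 in the RA list, 4 and 7 RARβ peaks, and 13 and 14 RXRα peaks. The region at its start was called in all 6 lists, with RARα at the 96.5th percentile under the control diet and the 91.6th under RA. RXRα was at the 93.1st and the 90.2nd there, and RARβ at the 29.3rd and the 57.5th. In contrast to Abcd2, RARα and RXRα both ranked high at this start. A region upstream, at -37.8 kb and also in all 6 lists, reached the 95.5th percentile for RXRα under the control diet, with RARβ at the 16.4th and the 72.3rd. The remaining region in all 6 lists, 92.0 kb downstream of the start, lay 192 bp from the start of F3.

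Ehhadh and Hsd17b4 encode the bifunctional enzymes that hydrate the enoyl-CoA and dehydrogenate the product. Ehhadh, the L-specific enzyme and a textbook PPARα target (chromosome 16, 21761285 to 21787834, minus strand), had 8 RARα peaks in the control list and 9 in the RA list, 3 and 6 RARβ peaks, and 12 and 14 RXRα peaks. At its start, RARα was at the 85.7th percentile under the control diet and the 69.9th under RA, and RXRα at the 46.6th and the 16.7th. RARβ was called there only under RA, at the 26.6th. RXRα ranked higher 4.9 kb inside the gene, at the 91.5th and the 93.5th, where RARα had no peak and RARβ was called under RA at the 17.2nd. RARα ranked higher upstream, at -6.5 kb, at the 92.1st and the 94.8th, where RXRα was at the 41.7th and the 38.6th. The best RARα and RXRα peaks near Ehhadh were thus at different positions.

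The highest-ranked region in the window of Ehhadh lay upstream, at -40.5 kb (chr16:21827294-21828835), 4266 bp from the start of Map3k13, which is the nearest listed start. RXRα had a score of 1747.8 there under the control diet, rank 46 of 61128 peaks, and 1833.71 under RA, rank 50 of 59624. RARβ was at the 97.0th and the 98.4th percentile, and RARα at the 80.3rd and the 94.3rd. The region at -30.9 kb held RXRα at the 99.3rd and the 98.4th, with RARβ at the 41.6th and the 85.6th. All 8 regions of Ehhadh farther than 19 kb upstream were nearest to Map3k13, and which gene they belong to was not tested.

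Hsd17b4, the D-specific bifunctional enzyme (chromosome 18, 50128201 to 50196270, plus strand), had the fewest peaks, 3 RARα peaks in the control list and 3 in the RA list, 3 and 2 RARβ peaks, and 6 and 3 RXRα peaks. The region at its start was called in all 6 lists, with RXRα at the 94.3rd and the 96.4th percentile, RARα at the 87.4th and the 78.6th, and RARβ at the 47.0th and the 70.7th. It was the only region of Hsd17b4 in all 6 lists. A peak 5.8 kb inside the gene was at the 89.4th for RXRα under the control diet and the 75.8th under RA, and RARβ was called there only under the control diet, at the 49.7th.

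The thiolases cleave the 3-ketoacyl-CoA in the last step of each cycle. Acaa1a and Acaa1b are rodent paralogs, of which Acaa1b is the more strongly inducible by peroxisome proliferators. Acaa1a (chromosome 9, 119341028 to 119350296, plus strand) had 8 RARα peaks in the control list and 8 in the RA list, 7 and 9 RARβ peaks, and 13 and 12 RXRα peaks. At its start RARα was at the 95.1st percentile and the 94.8th, RXRα at the 85.0th and the 79.5th, and RARβ at the 4.2nd and the 49th. A second region, 1.9 kb inside the gene, held RXRα at the 91.0th and the 91.9th and no RARα peak under the control diet. Its remaining regions in all 6 lists lay 2 bp from the start of Oxsr1 and 478 bp from that of Xylb, at percentiles of 75.9 to 98.2.

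Acaa1b (chromosome 9, 119148043 to 119157093, minus strand) had 7 RARα peaks in the control list and 8 in the RA list, 3 and 4 RARβ peaks, and 10 and 9 RXRα peaks. At its start RARα was at the 79.3rd percentile under the control diet and the 95.3rd under RA, and RARβ was called only under RA, at the 27.6th. RXRα had 2 peaks there under the control diet, at the 35.9th over the start and at the 95.2nd centred 1618 bp inside the gene, and under RA 1 peak 2943 bp wide at the 94.4th that covered both places. Its only region in all 6 lists lay upstream, at -7.9 kb (chr9:119164377-119165416) and was nearest to the start of Acaa1b itself. There RXRα was at the 99th and the 98.3rd, RARα at the 40.5th and the 52.8th, and RARβ at the 20.5th and the 80.7th. The RARβ percentile differed there by 60.3 points, the largest value among the 21 regions of the 8 genes with RARβ peaks in both diets. The RARβ control peak there had a score of 57.05, rank 11907 of 14968, and was near the lowest score in the lists (50). The RARβ list was longer under RA, and percentiles within lists of different length are not on the same footing. Over all RARβ regions called in both diets the median difference was 6.3 points. The cause of these differences was not tested.

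Both thiolases had a high-ranked RXRα peak near the start, and the upstream RXRα region of Acaa1b ranked above any RXRα peak in the window of Acaa1a. The reads were 35 bp long. Of the 35-base stretches of the Acaa1a transcripts in GENCODE M1, 714 of 1824 (39.1%) also occurred in those of Acaa1b, and none of the 266 in the promoter windows shown above did. Stretches of spliced transcripts can cross exon junctions that genomic DNA lacks, so 39.1% is not a share of ChIP-seq reads. Reads from within exons of this pair can still fit both genes, and the effect of this on the peaks was not tested.

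Scp2 (chromosome 4, 108043830 to 108144971, minus strand) encodes the thiolase for branched chain substrates together with sterol carrier protein 2. With 8 RARα peaks in the control list and 10 in the RA list, 3 and 9 RARβ peaks, and 25 and 24 RXRα peaks, it had the most RXRα peaks of the 8 genes, and its window of 201.1 kb was the longest. At its listed inner start, the one with the half-site above, RARα had a single peak in each diet. Under the control diet it was 5958 bp wide, centred 2300 bp farther into the gene, at the 76.5th percentile. Under RA it was narrower, centred 251 bp away, at the 94.5th. RXRα was low at this start, at the 10th and the 13.4th, and stood higher at 1782 and 1996 bp farther into the gene, at the 36.4th and the 68.5th. RARβ had no peak there. The peaks over the inner start of Scp2 thus ranked higher for RARα than for RXRα in both diets, although the RARα control peak was centred away from this start.

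Scp2 held regions that differed in opposite directions between the diets. A region 14.2 kb inside the gene (chr4:108129882-108131504) was called in all 3 control lists, for RARα with a score of 390.97 at the 92.8th percentile, for RARβ at the 45.9th and for RXRα at the 74.2nd. Under RA neither RAR was called there, and RXRα was at the 24.1st. Farther in, 61.4 kb from the start (chr4:108082775-108084263), RXRα was at the 90.3rd under the control diet and the 98.0th under RA, RARβ was called only under RA at the 87.6th, and RARα only under RA at the 10.8th. The next region, 67.2 kb from the start, also had RARβ only under RA, at the 81.5th, with RXRα at the 78.5th and the 84.6th. One gene thus held both the highest-ranked RARα peak called only under the control diet and the second highest RARβ peak called only under RA among the 8 genes.

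Acot8 (chromosome 2, 164792768 to 164820219, minus strand) encodes an acyl-CoA thioesterase of broad specificity. It had 7 RARα peaks in the control list and 9 in the RA list, 5 and 8 RARβ peaks, and 13 and 12 RXRα peaks. Its listed start lies inside the span, and a region over it (chr2:164804376-164805658) was called in all 6 lists. The start of Zswim3 lies beside that of Acot8. The RARβ peak under RA was centred at -11 bp from the listed start of Acot8, while the other 5 peaks were centred at -236 to -146 bp and were nearest to Zswim3, at 3 to 86 bp, so the region cannot be assigned to 1 of these genes. RARα was at the 99.5th percentile under the control diet (rank 187) and the 96.6th under RA, and RARβ at the 99.2nd (rank 121) and the 99.8th (rank 70). RXRα was at the 81.8th and the 84.3rd. Over these neighbouring starts the RAR peaks ranked above those of RXRα, whereas at Abcd2 RXRα ranked above the RARs. The window of Acot8 is rich in other genes, and 13 of its 15 regions, the one over its listed start included, were nearest to the start of another gene. The peak that counted for Acot8 within 10 kb of the outermost start was one of these, a region 427 bp from the start of Zswim1. The highest RARβ peak called only under RA in any window lay 29.5 kb downstream of the start of Acot8, at the 97.5th, with RXRα at the 97.9th and the 98.0th and RARα not called, and was nearest to Snx21.

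Peaks that shared a base were merged over the lists into 87802 regions, of which 117 lay in the windows of the 8 genes. A region was placed at the mean of its peaks' midpoints. Of these 117, 56 were nearest to a start of their own gene and 12 lay within 1 kb of the start of another gene. The shares below are given with Wilson 95% intervals, which cover counting error only, and neighbouring regions are not independent. All 6 lists shared 17 regions, 14.5% (9.27 to 22.0) against 9.75% of all regions. These were 4 of Acot8, 3 each of Ehhadh, Acaa1a and Abcd3, 2 of Scp2, 1 each of Acaa1b and Hsd17b4 and 0 of Abcd2. A single list held 25 regions, 21.4% (14.9 to 29.6) against 29.4%. RXRα was called in both diets with no RAR peak at 26 regions, 22.2% (15.6 to 30.6) against 16.9%. A RAR was called without RXRα at 11 regions, 9.40% (5.33 to 16.1) against 20.1%. Of these 4 shares, only the last had an interval that did not hold the value of all regions. Over the 56 regions nearest to their own gene, 3 had a RAR without RXRα (5.36%) and 6 were in all 6 lists (10.7%). Of the same 56, 9 had RXRα in both diets with no RAR peak (16.1%) and 15 were in a single list (26.8%).

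**Figure D3:**
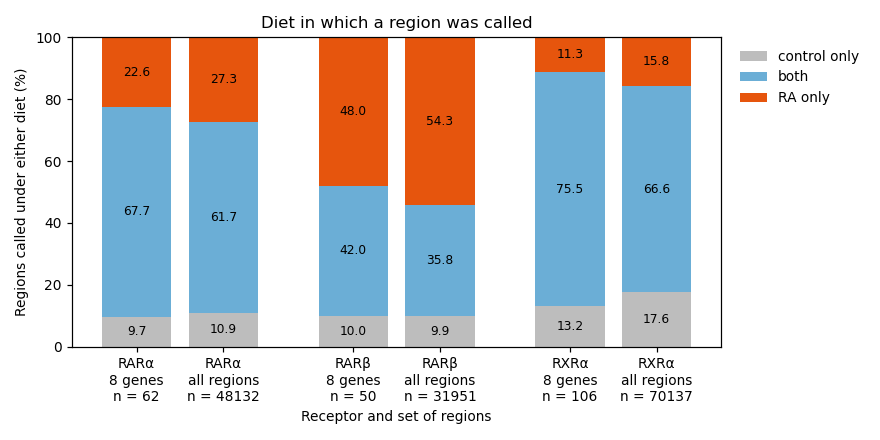
Share (%) of the regions called for a receptor in either diet that were called under the control diet only, under both or under RA only, for the windows of the 8 genes and for all regions. RARβ had the largest RA only share in both sets (48.0% and 54.3%).

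The diets were compared per receptor, as the share of regions called in 1 diet only. For RARα, 14 of 62 regions were called only under RA, 22.6% (14.0 to 34.4) against 27.3% of all RARα regions, and 6 only under the control diet, 9.68% (4.51 to 19.6) against 10.9%. For RARβ, 24 of 50 were called only under RA, 48.0% (34.8 to 61.5) against 54.3%, and 5 only under the control diet, 10% (4.35 to 21.4) against 9.9%. For RXRα, 12 of 106 were called only under RA, 11.3% (6.60 to 18.8) against 15.8%, and 14 only under the control diet, 13.2% (8.03 to 21.0) against 17.6%. These shares were near those of all regions for each receptor, and every interval held the value of all regions, as the plot of shares by diet shows. Over regions nearest to their own gene, RARα was called only under RA at 8 of 28 (28.57%) and only under the control diet at 3 (10.71%). For RARβ these counts were 12 of 22 (54.55%) and 3 (13.64%), and for RXRα 4 of 53 (7.547%) and 12 (22.64%). The shares of all regions beside these are those given above for each receptor.

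**Figure D4:**
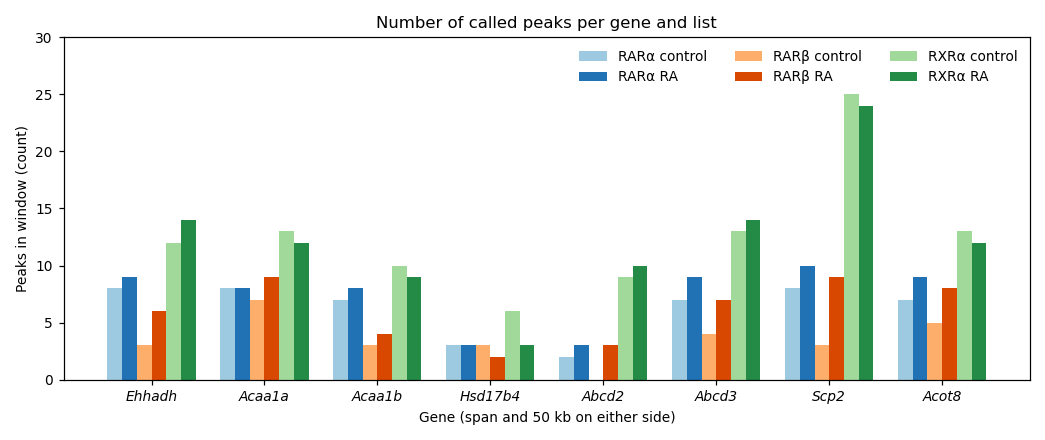
Number of called peaks in the window of each gene (y axis) for the 6 lists (bars). RARβ rose in count from control to RA at 7 genes and was lower at Hsd17b4 (3 and 2). The whole RARβ list was also longer under RA (29467 peaks against 14968).

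By gene, the number of RARβ peaks was higher under RA at 7 genes and lower at Hsd17b4, with the largest difference at Scp2 (3 and 9). RARα peaks were more numerous at 6 genes and equal in number at Acaa1a and Hsd17b4. RXRα peaks were more numerous at Ehhadh, Abcd2 and Abcd3 and fewer at the other 5. Summed over the genes, these differences came to 9 RARα peaks, 20 RARβ peaks and -3 RXRα peaks. The RA lists of the RARs were longer as a whole, 44296 peaks against 35521 for RARα and 29467 against 14968 for RARβ. That of RXRα was shorter, 59624 against 61128. With every list cut to its 14968 highest-scoring peaks the differences turned to -8 for RARα and -10 for RARβ, and to 0 for RXRα. With a score of at least 100 they were 8, 10 and -6. At equal list length, 1 RARα region was called only under RA and 8 only under the control diet. For RARβ these counts were 6 and 14. For both RARs the order was the reverse of that in the full lists. Read depth is not in the lists, so depth and diet cannot be told apart here.

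Where a receptor was called under both diets, the percentiles were set side by side, although they come from lists of different length. For RARα the median change of 42 regions was 4.5 percentile points, against 4.2 over all 29701 such regions. For RARβ it was 3.7 over 21 regions, against 6.3 over 11446, and for RXRα -0.8 over 80 regions, against 0.1 over 46708.

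RXRα was called in both diets and RARβ only under RA at 21 regions, 17.9% (12.1 to 25.9) against 16.5% of all regions. The corresponding count for RARα only under RA was 12, 10.3% (5.97 to 17.1) against 8.02%. The regions of Scp2 at 61.4 and 67.2 kb, that of Acot8 at 29.5 kb and the start of Abcd2 belong to the RARβ group.

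Other genes of the pathway and of related pathways were counted from lists made from general knowledge. Of 19 other peroxisomal β-oxidation genes, RARα had a peak within 10 kb at 17 with the control diet and 19 with RA, RARβ at 10 and 19 and RXRα at 19 and 19, and 10 of these genes were in all 6 lists. Crat, the peroxisomal and mitochondrial carnitine acetyltransferase, had best peaks at the 86.0th to the 99.2nd percentile over the lists. Nudt7, a peroxisomal CoA diphosphatase, had RAR peaks within 10 kb only under RA, RARα at the 81.9th and RARβ at the 38.9th, with RXRα at the 47.7th and the 58.2nd. Of 15 peroxisome biogenesis genes, RARα and RXRα reached 15 in each diet and RARβ 14 and 15. Of 15 mitochondrial β-oxidation genes, they reached 15 in each diet and RARβ 12 and 15. Of all protein-coding genes, 61.9% had such a RARα peak under the control diet and 63.3% under RA. The shares were 44.1% and 54.7% for RARβ and 61.3% and 61.7% for RXRα. All 6 lists reached 38.22% of all genes. Among the 8 genes and each companion list, RARβ under the control diet was the list called at the fewest genes, which was also the shortest list.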

How the data were processed

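Liver ChIP-seq of 6 libraries (3 receptors, 2 diets, 1 library each) was used; no processed file of the input was used here. The authors aligned 35 bp reads to mm10 with Bowtie and called peaks with MACS, and the submitters' processing notes also name CASAVA 1.4. The deposited files hold 1 peak list per library, and no pooling of libraries is stated. The deposited score of each peak is the caller's value, which grows with the −log10 of the p-value and was not normalized between lists. No score was under 50. Neither read totals nor depth are in the lists, so the precision of a single peak is unknown. 

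Gene spans came from RefSeq GRCm38.p6. The strand came from the RefSeq promoter table (17492 genes) or, by symbol, from GENCODE M1 (4044 genes), and 98.4% of 21887 protein-coding genes had one. A peak was assigned by its midpoint. Regions are peaks of all lists merged where they shared a base. No coordinates of NCBIM37 and no genome sequence under peaks were used. Counting used Python 3.11.15 with pandas 2.3.3 and numpy 2.4.6, was tested on simulated data, and intervals are Wilson 95%. Groups (receptor and diet) followed the sample titles. No test was made, because each group is 1 library.

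All 8 genes are named. From each companion list the rule allows at most 3 genes with the highest mean percentile of the best peak within 10 kb and at most 3 called in the fewest lists. A gene that this rule names is not reported here. The members and lists were chosen with earlier results of these data known. Of the hepatocyte markers Alb, Ttr, Apoa1, Tat and Cps1, RXRα had a peak within 10 kb at 5 and 5 under the control diet and RA (61.3% and 61.7% of all genes), RARα at 3 and 4 (61.9% and 63.3%) and RARβ at 3 and 4 (44.1% and 54.7%). Of Myh6, Neurod1, Ins2, Ckm and Gfap, markers of other tissues, RXRα had one at 3 and 4, RARα at 3 and 3 and RARβ at 1 and 0. The RARα control list thus reached as many markers of other tissues as of hepatocytes. A peak near a gene is not its expression. Alternatives were a score of at least 100, lists of equal length, other distances and windows, any base of a peak in place of its midpoint, and an overlap of at least 25%. Counting from any listed start was added after the data were seen.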

Additional observations from a re-analysis of the deposited data

Results flagged for a closer look

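The 3 receptors differed in the direction in which the number of peaks in the windows of the 8 genes moved between the diets. The difference RA minus control was 9 peaks for RARα (50 and 59), 20 for RARβ (28 and 48) and -3 for RXRα (101 and 98). The whole lists moved in the same directions, from 35521 to 44296 peaks for RARα, 14968 to 29467 for RARβ and 61128 to 59624 for RXRα. The windows held 0.141% and 0.133% of the RARα lists (control and RA), 0.187% and 0.163% for RARβ, and 0.165% and 0.164% for RXRα. No receptor's share was higher under RA. RARα was not lower at any gene and RARβ was lower only at Hsd17b4, whereas RXRα was lower at 5 genes. The difference between receptors was not tested, since each list is 1 library. With lists of equal length the values were -8, -10 and 0.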

How the results depend on the processing

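With 1 library per group, no result could be checked by leaving out a replicate. No paired analysis was possible because each receptor and diet has 1 library. Of 102 alternative values, 61 stayed within 1.5 times the reported count, 39 moved farther and 2 reversed; the causes were not tested, beyond the shorter lists and windows themselves. Lists of equal length reversed the difference RA minus control in peaks for RARα (-8) and RARβ (-10) and gave 0 for RXRα. The windows then held 27 RARα peaks in the control list and 19 in the RA list, 18 RARβ peaks in the RA list and 32 RXRα peaks in each. RARα and RARβ under RA were then called within 10 kb at 5 and 4 genes, and at 6 each under the control diet. Regions called only under RA numbered 1 (RARα), 6 (RARβ) and 5 (RXRα). Those called only under the control diet numbered 8 (RARα), 14 (RARβ) and 4 (RXRα). With a score of at least 100, RARβ was called within 10 kb at 1 gene under the control diet and 4 under RA. The windows then held 31 RARα peaks in the control list and 39 in the RA list, and 8 and 18 RARβ peaks, with differences of 10 for RARβ and -6 for RXRα. Regions only under RA were 12 for RARβ and 6 for RXRα, and only under the control diet 1 for RARα and 2 for RARβ. With windows of 10 kb, RARα had 25 peaks in the control list and 29 in the RA list, RARβ 14 and 27, and RXRα 57 and 48, which differ by 4, 13 and -9. Regions only under RA were 8, 15 and 3, and 2 RARβ regions were found only under the control diet. A limit of 1 kb from the start left RARβ under the control diet at 3 genes. From any listed start, RARα and RXRα were called within 10 kb at 8 genes in each diet and RARβ at 6 and 8. This count was added after the data were seen. Shares of all genes with a peak near the start were counted only with the full lists and from the outermost start.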

Other observations

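Among the 19 other peroxisomal β-oxidation genes, those with the highest mean percentile of the best peak within 10 kb were Crat, Decr2, an auxiliary enoyl-CoA reductase, and Amacr, the racemase of branched chain acyl-CoAs. Decr2 had RARα at the 93.9th percentile under the control diet and the 96.9th under RA, RARβ at the 66.3rd and the 97.8th, and RXRα at the 97.3rd and the 97.7th. At Amacr, RARα was at the 98.8th and the 99.6th, RARβ at the 66.5th and the 90.2nd, and RXRα at the 91.3rd and the 87.3rd. Those called in the fewest lists included Nudt7, in 4 lists. Acot3, a peroxisomal acyl-CoA thioesterase, was called in 5 lists and came first in alphabetical order among genes with that number. It lacked RARβ under the control diet and had RXRα at the 99.4th and the 89.1st. RARβ under the control diet was called at 10 of the 19 genes, so this lack was not particular to Acot3. The RXRα control peak, at -9689 bp from the start of Acot3, was also counted for Acot4, whose start was nearer (5201 bp).

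In the peroxisome biogenesis list, Pex2, a subunit of the ubiquitin ligase of the import machinery, ranked at the 89.8th to the 99.7th percentile in the 6 lists. Pex5, the receptor that imports matrix proteins, was called in 5 lists and not in RARβ under the control diet. In the mitochondrial list, Etfdh, which passes electrons from acyl-CoA dehydrogenases to the respiratory chain, ranked at the 78.6th to the 97.4th, and Acadl, the long chain acyl-CoA dehydrogenase, lacked only RARβ under the control diet.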
